A study of Mus musculus with 9 samples.

Results

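The 45 genes described here build and police the mitotic spindle: 13 genes of the inner kinetochore, 6 of the outer kinetochore, 6 of the spindle checkpoint, 4 of the chromosomal passenger complex, 3 for Aurora A, Plk1 and the activator Tpx2, 6 for Cdk1 with its cyclins and Cdc25 phosphatases, 3 of anaphase onset and 4 of mitotic chromosomes, spindle poles and cytokinesis. They were chosen by gene symbol, and all 45 had a row among the 38926 symbols counted in each library. The cells were a murine leukaemia line carrying MLL-AF9, an oncogenic fusion of a histone methyltransferase gene, which had been through tertiary transplantation. They were transduced with shRNA-1 or shRNA-2, hairpin RNAs against Syncrip, an RNA-binding protein, or with a control hairpin, and RNA was taken at day 4 from 3 separately transduced and processed cultures a group. The labels call the control hairpin scrambled and the design text calls it a luciferase hairpin. Which was used is not given, and every group carried MLL-AF9.

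The kinetochore is the protein structure on centromeric chromatin that captures spindle microtubules. Its inner layer rests on nucleosomes holding the histone variant CENP-A, and its outer layer holds the microtubule-binding NDC80 complex. Unattached kinetochores recruit the MAD and BUB checkpoint proteins, which hold back CDC20 and the anaphase-promoting complex until every chromosome is attached, and cyclin B with CDK1, Aurora and Polo kinases drive the steps before and after. In dividing cells many of these genes are transcribed mainly late in the cycle, from promoters that often carry the cell-cycle element called CHR and CCAAT boxes, which bind the DREAM or MYB-MuvB complexes and NF-Y.

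The checks of the libraries were as follows. Syncrip stood at 17.8 ± 2.13 CPM with shRNA-1, 56.7 ± 9.05 CPM with shRNA-2 and 227 ± 17.5 CPM in the controls (CPM, the count scaled to the TMM-adjusted library size; SD, n = 3), which matches the labels. Library totals were 9559638 to 13416141 counts with shRNA-1, 14953491 to 15915940 with shRNA-2 and 13683660 to 19483923 in the controls. Ribosomal RNA genes took between 12 and 19.3% of the counts in shRNA-1 libraries, between 6.10 and 15.8% in shRNA-2 libraries and between 4.77 and 8.29% in control libraries. This share counts only Gm26924 and the mitochondrial genes mt-Rnr1 and mt-Rnr2. The 10 myeloid markers were all detected, but their levels changed. At an edgeR adjusted p under 0.05, Hoxa9 and Meis1 were lower and Lyz2 higher with both hairpins. Itgam, Csf1r and Fcgr3 were called higher and Kit lower with shRNA-2 alone. Ptprc and Cebpa were called lower with shRNA-1 alone, and Spi1 passed with neither hairpin. Cd3g and Cd8a of T cells, Cd79a of B cells, Alas2 of erythroid cells and Col3a1, Pdgfra and Dcn of stroma and Tek of endothelium had no count in any library. Other markers of these types were counted. The highest of the T cell, B cell, erythroid and stroma markers was Cd79b, at 12.6 ± 1.61 CPM with shRNA-1, 12.6 ± 2.37 CPM with shRNA-2 and 15.7 ± 2.12 CPM in the controls. The summed B cell markers lay between 10.001 and 17.8 CPM in all 9 libraries, the T cell markers between 2.00 and 4.80 CPM and the erythroid markers between 0.304 and 1.32 CPM. Summed stroma markers stood at 0.0923 to 0.307 CPM with shRNA-1, 1.16 to 1.60 CPM with shRNA-2 and 0.101 to 0.531 CPM in the controls. Summed endothelium markers, mostly Pecam1, stood at 5.16 to 8.40 CPM with shRNA-1, 18.9 to 22.2 CPM with shRNA-2 and 16.7 to 29.1 CPM in the controls. Summed epithelium markers, among them Cdh1, stood at 10.98 to 18.8 CPM with shRNA-1, 26.5 to 34.8 CPM with shRNA-2 and 12.6 to 17.7 CPM in the controls. Cd3d, Col1a1, Kdr and Cdh1 were called higher with shRNA-2 (edgeR adjusted p = 0.00569, 0.00214, 0.00142 and 0.000622), and Pecam1 and Krt18 lower with shRNA-1 (adjusted p = 0.000211 and 0.00114). Krt18 was also called lower with shRNA-2 (adjusted p = 0.00911). Summed neutrophil markers, mostly S100a8 and S100a9, stood at 26092 to 33412 CPM with shRNA-1, 30394 to 44649 CPM with shRNA-2 and 10453 to 11095 CPM in the controls. S100a8, S100a9, Camp and Mmp9 were called higher with both hairpins. Ltf was called higher with shRNA-1 (adjusted p = 0.000171) and lower with shRNA-2 (adjusted p = 0.000351). Ly6g was close to 0 CPM in every library. Summed macrophage markers stood at 84.6 to 117 CPM with shRNA-1, 324 to 565 CPM with shRNA-2 and 77.9 to 93.3 CPM in the controls. The part of these markers in the results was not tested. In bulk RNA, fewer cells in mitosis and less RNA per cell cannot be told apart.

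Promoter sequences are shown for 4 members that stand for the different responses described further on: Ccnb2 and Plk1, called lower with shRNA-2, Cdk1, called higher with shRNA-1, and Cenpe, called lower with both hairpins. Each is the RefSeq window on GRCm38.p6 from 250 bases before the transcript start to 50 bases after it, 5′ to 3′ on the strand of the gene. Capitals mark 3 motifs. They are the CHR letters TTTGAA, which read as TTCAAA on the opposite strand, the variant TTTAAA of these letters, and the CCAAT box, which reads as ATTGG on the opposite strand. Ccnb2 (chr9:70421505-70421804, minus strand) encodes cyclin B2, Cdk1 (chr10:69352863-69353162, minus strand) the mitotic cyclin-dependent kinase, Plk1 (chr7:122159185-122159484, plus strand) Polo-like kinase 1 and Cenpe (chr3:135212313-135212612, plus strand) a kinetochore motor.
Ccnb2: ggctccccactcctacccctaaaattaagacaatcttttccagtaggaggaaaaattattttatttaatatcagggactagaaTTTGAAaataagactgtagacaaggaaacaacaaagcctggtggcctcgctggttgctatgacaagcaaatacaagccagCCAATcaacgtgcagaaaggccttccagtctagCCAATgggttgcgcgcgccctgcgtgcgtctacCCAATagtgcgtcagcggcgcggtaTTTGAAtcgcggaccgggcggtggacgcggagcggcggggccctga
Plk1: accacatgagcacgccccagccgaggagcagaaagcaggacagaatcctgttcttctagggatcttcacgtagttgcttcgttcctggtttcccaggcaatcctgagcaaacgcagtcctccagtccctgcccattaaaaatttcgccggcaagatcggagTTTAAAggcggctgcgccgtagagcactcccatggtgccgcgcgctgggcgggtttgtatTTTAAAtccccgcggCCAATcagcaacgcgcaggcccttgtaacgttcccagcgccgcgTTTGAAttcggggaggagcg
Cdk1: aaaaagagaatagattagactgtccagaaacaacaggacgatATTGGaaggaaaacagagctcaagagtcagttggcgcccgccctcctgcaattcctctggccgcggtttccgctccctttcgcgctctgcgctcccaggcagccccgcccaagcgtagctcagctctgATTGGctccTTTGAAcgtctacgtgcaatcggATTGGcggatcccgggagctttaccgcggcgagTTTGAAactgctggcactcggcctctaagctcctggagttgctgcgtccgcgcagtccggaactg
Cenpe: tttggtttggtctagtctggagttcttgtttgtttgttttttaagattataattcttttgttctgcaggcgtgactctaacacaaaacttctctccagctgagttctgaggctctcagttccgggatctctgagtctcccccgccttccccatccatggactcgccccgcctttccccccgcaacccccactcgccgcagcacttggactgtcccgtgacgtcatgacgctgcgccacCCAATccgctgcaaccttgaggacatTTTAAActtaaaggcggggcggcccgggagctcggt
The Ccnb2 window held 2 TTTGAA and 3 CCAAT matches, with a TTTGAA at base 255 just past the start and CCAAT at bases 164, 197 and 230 before it. The Plk1 window held TTTGAA once, at base 281, after a CCAAT at base 237. The Cdk1 window held TTTGAA at bases 180 and 236 and ATTGG 3 times. The Cenpe window held no TTTGAA. It had CCAAT at base 239 and TTTAAA at base 265.

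A promoter window was listed for 39 of the 45 members, all but Spc24, Aurkb, Incenp, Tpx2, Ccna2 and Cdc25c. TTTGAA was found on either strand in 20 of the 39 (51.3%), against 14.3% of the 8585 tested genes with a window. CCAAT was found in 28 of the 39 (71.8%), against 43.4%. Both stood in the same window in 18 members (46.2%), against 5.98%. TTTAAA was found in 11 members (28.2%), against 10.7%. Motifs were searched on both strands, and none of the matches in the printed windows overlapped another. The 20 members with TTTGAA had a median log2 fold change of -0.22 with shRNA-1 and -0.70 with shRNA-2, and the 19 without it -0.24 and -0.30. These matches describe the letters of the windows and are not measured binding sites.

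Many of the mitotic genes were lower in the Syncrip-depleted cells, among them Top2a, Mki67, Cenpe and Cenpf with both hairpins and cyclin B1 and Aurora A with shRNA-2. The summed level of the 45 members was 4630 ± 421 CPM with shRNA-1, 3357 ± 512 CPM with shRNA-2 and 5623 ± 267 CPM in the controls (SD, n = 3). A large part of the fall in this sum was Top2a alone. It averaged 460 CPM with shRNA-1, 209 CPM with shRNA-2 and 1014 CPM in the controls. In the edgeR quasi-likelihood fit of all 12663 genes that passed the count filter, which included all 45 members, 16 members were called lower and 5 higher with shRNA-1 at an adjusted p under 0.05. Of all genes, 17.3% were called lower and 17.4% higher in that comparison, together 34.7%. With shRNA-2, 27 members were called lower and 0 higher, where 24.2% of all genes were called lower and 24.4% higher, together 48.7%. The median log2 fold change of the members was -0.24 with shRNA-1 and -0.56 with shRNA-2, and that of all genes 0.02 and 0.00. At an unadjusted p under 0.05, 0 members were higher with shRNA-2, and DESeq2 and limma-voom also called 0 higher.

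A core of 14 members fell with both hairpins (9.57% of all genes did): Cenpc1, Cenpn, Cenpt, Ndc80, Cenpe, Cenpf, Mad1l1, Ttk, Incenp, Tpx2, Espl1, Top2a, Mki67 and Aspm. No member rose with both (9.24% of all genes did). All 6 knockdown libraries lay below all 3 controls for 17 of the 45 members (14.4% of all genes), and above them for 0 (12.9% of all genes). Called with shRNA-2 alone were 12 members, all lower, and called with shRNA-1 alone were 6, of which Cenpk, Cenpl, Cenpq and Cdk1 were higher and Cenph and Cdc25b lower. Cenpa was called in opposite directions. The other 12 members passed the test with neither hairpin. The comparisons share the control libraries, so these counts are not independent.

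Without any 1 library, 12 to 18 members were called lower with shRNA-1, 23 to 32 with shRNA-2 and 12 to 17 with both. The shares of all genes called lower were then 11.3 to 19.3% with shRNA-1 and 18.8 to 24.6% with shRNA-2. With each library's ribosomal RNA share as a covariate, only 3 members stayed below an adjusted p of 0.05 in the lower direction with shRNA-1, namely Cenpn (0.0124), Cenpe (0.0327) and Top2a (0.0413), and 3 in the higher direction, Cenpa (0.00839), Cenpl (0.0471) and Cdk1 (0.0384). The other members called with shRNA-1 then had adjusted p between 0.0522 and 0.535. In that fit 4.19% of all genes were called lower with shRNA-1. The shares did not overlap between these groups, at 12 to 19.3% with shRNA-1 and 4.77 to 8.29% in the controls. For shRNA-1 against control the fit therefore separates the hairpin and the share poorly. Cenpt lost its call at a log2 fold change of -0.94, against -0.81 without the covariate. Which of the 2 a lost call reflects was not tested. With shRNA-2 the same covariate ended the calls of Birc5 (0.0911), Cdca8 (0.0624) and Plk1 (0.078). Under scaling by total counts the median log2 fold change of all genes was -0.226 for shRNA-1 against control and -0.214 for shRNA-2 against control. This scaling ended the higher calls of Cenpk (0.182), Cenpl (0.0951) and Cdk1 (0.225) with shRNA-1. It also raised the lower calls to 21 with shRNA-1, adding Cenpb, Cenpm, Cenpp, Spc25 and Bub1, and to 35 with shRNA-2, adding Cenpk, Cenpl, Cenpo, Cenpp, Cenpq, Bub3, Cdk1 and Cdc25c. Under it 27.4% of all genes were called lower with shRNA-1 and 33.2% with shRNA-2.

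**Figure D1:**
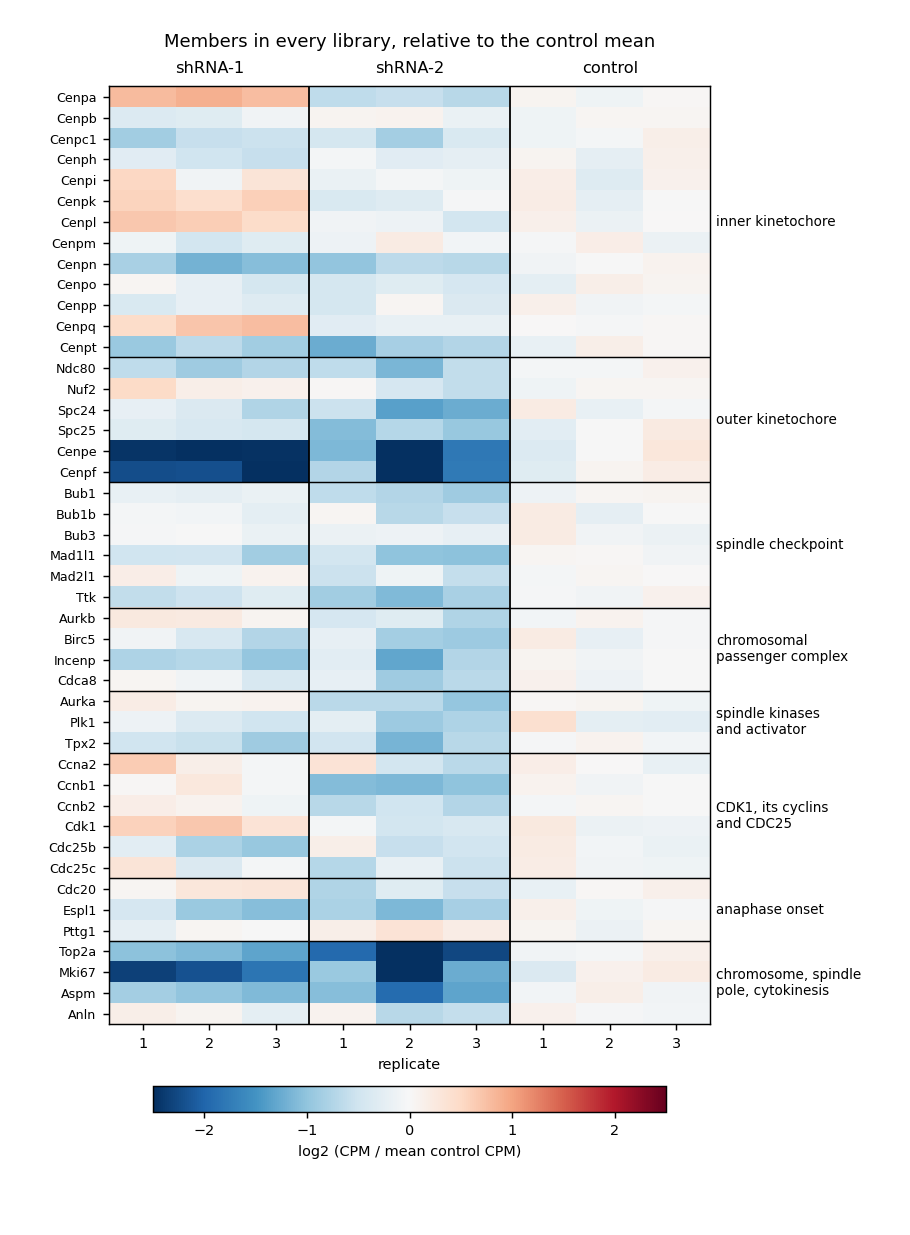
Heat map of the 45 members, grouped by role, in the 3 shRNA-1, 3 shRNA-2 and 3 control libraries; colour gives log2 of the CPM over the mean control CPM, with values past the scale in its end colours. Cenpe, Cenpf, Top2a and Mki67 are the darkest rows in the knockdown libraries, and the shRNA-2 libraries differ among themselves more than the controls do for Cenpe, Cenpf and Mki67.

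In the inner kinetochore the members were called in both directions with shRNA-1. Of 13 members, 4 were called lower and 4 higher with shRNA-1, and 4 lower and 0 higher with shRNA-2. The shares of all genes were 17.3% and 17.4% with shRNA-1, and 24.2% and 24.4% with shRNA-2. Cenpa (chr5:30666777-30674830, plus strand, GRCm38), the histone H3 variant that marks the centromere, had 252, 272 and 248 CPM with shRNA-1, 94.7, 98.4 and 90.9 CPM with shRNA-2 and 153, 136 and 149 CPM in the controls. Every shRNA-1 library was above and every shRNA-2 library below all controls. The log2 fold change was 0.82 ± 0.11 (adjusted p = 0.00039) with shRNA-1, a 1.76-fold higher level, and -0.63 ± 0.11 (adjusted p = 0.000595) with shRNA-2 in the edgeR quasi-likelihood test. The difference between the hairpins was 1.44 ± 0.11 (adjusted p = 3.35e-06), the largest of the 45 in size.

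Cenpc1, whose product CENP-C ties CENP-A nucleosomes to the outer layer, had 11.5, 14.1 and 14.5 CPM with shRNA-1, 15.4, 11.6 and 16.1 CPM with shRNA-2 and 19.6, 20.3 and 23.1 CPM in the controls. Both knockdown groups lay below the controls. Its log2 fold change was -0.65 ± 0.16 (adjusted p = 0.0091) with shRNA-1 and -0.55 ± 0.16 (adjusted p = 0.0125) with shRNA-2, and the shRNA-2 call was lost without control replicate 3 (adjusted p = 0.0643). Cenpt, the other bridge to the NDC80 complex, had 5.60, 6.76 and 5.81 CPM with shRNA-1, 4.54, 6.03 and 6.41 CPM with shRNA-2 and 9.33, 11.7 and 10.9 CPM in the controls. Both knockdown groups were below the controls, and it fell by 1.75-fold with shRNA-1 and 1.88-fold with shRNA-2 (adjusted p = 0.0066 and 0.00163). Cenpn, whose product binds the CENP-A nucleosome together with CENP-L, had 9.77, 7.60 and 8.21 CPM with shRNA-1, 8.71, 10.9 and 10.6 CPM with shRNA-2 and 16.1, 17.1 and 18.3 CPM in the controls. All knockdown libraries were below all controls, with log2 fold changes of -1.02 ± 0.16 (adjusted p = 0.000837) with shRNA-1 and -0.77 ± 0.15 (adjusted p = 0.00137) with shRNA-2.

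Cenpl, the partner of Cenpn, went the other way with shRNA-1. It had 69.8, 67 and 60.5 CPM with shRNA-1, 41, 39.98 and 32.1 CPM with shRNA-2 and 48, 39.5 and 44.1 CPM in the controls. The shRNA-1 libraries were all above the controls and the shRNA-2 libraries overlapped them, with log2 fold changes of 0.58 ± 0.13 (adjusted p = 0.00599) and -0.22 ± 0.13 (adjusted p = 0.192). Cenpq, of the CENP-O subcomplex, had 35.8, 41.8 and 44.6 CPM with shRNA-1, 21.2, 22.8 and 22.9 CPM with shRNA-2 and 26, 25.5 and 26.5 CPM in the controls. Its shRNA-1 libraries were all above and its shRNA-2 libraries all below the controls, the first a called difference (0.65 ± 0.12, adjusted p = 0.0019) and the second not (-0.22 ± 0.12, adjusted p = 0.147). Cenpk averaged 34.4 ± 2.03 CPM with shRNA-1, 20.3 ± 2.65 CPM with shRNA-2 and 23.8 ± 3.39 CPM in the controls (SD, n = 3) and was called higher with shRNA-1 (0.53 ± 0.14, adjusted p = 0.0145), a call lost without shRNA-1 replicate 3 or control replicate 2 (adjusted p up to 0.0726). Cenph, its neighbour in the CENP-H/I/K/M subcomplex, averaged 64.7 ± 6.98 CPM with shRNA-1, 77.4 ± 6.46 CPM with shRNA-2 and 87.9 ± 11.1 CPM in the controls and was called lower with shRNA-1 (-0.44 ± 0.13, adjusted p = 0.0236), which was lost without shRNA-1 replicate 2 or 3 or control replicate 1 or 3 (adjusted p up to 0.103).

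The remaining inner members, Cenpb, Cenpi, Cenpm, Cenpo and Cenpp, passed the test with neither hairpin. Cenpb, which binds the satellite DNA of centromeres, had a log2 fold change of -0.24 ± 0.13 with shRNA-1 and 0.01 ± 0.13 with shRNA-2, and Cenpi had 0.26 ± 0.18 and -0.12 ± 0.18. Cenpm, of the same subcomplex as Cenpi, had -0.28 ± 0.14 and 0.01 ± 0.14, and Cenpp, a partner of Cenpo, -0.30 ± 0.15 and -0.24 ± 0.15. Cenpo was the nearest to a call, at -0.39 ± 0.16 (adjusted p = 0.0602) with shRNA-2, and was called without control replicate 1 (adjusted p = 0.0387). Cenpp with shRNA-2 was called without shRNA-2 replicate 2 (adjusted p = 0.0363).

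**Figure D2:**
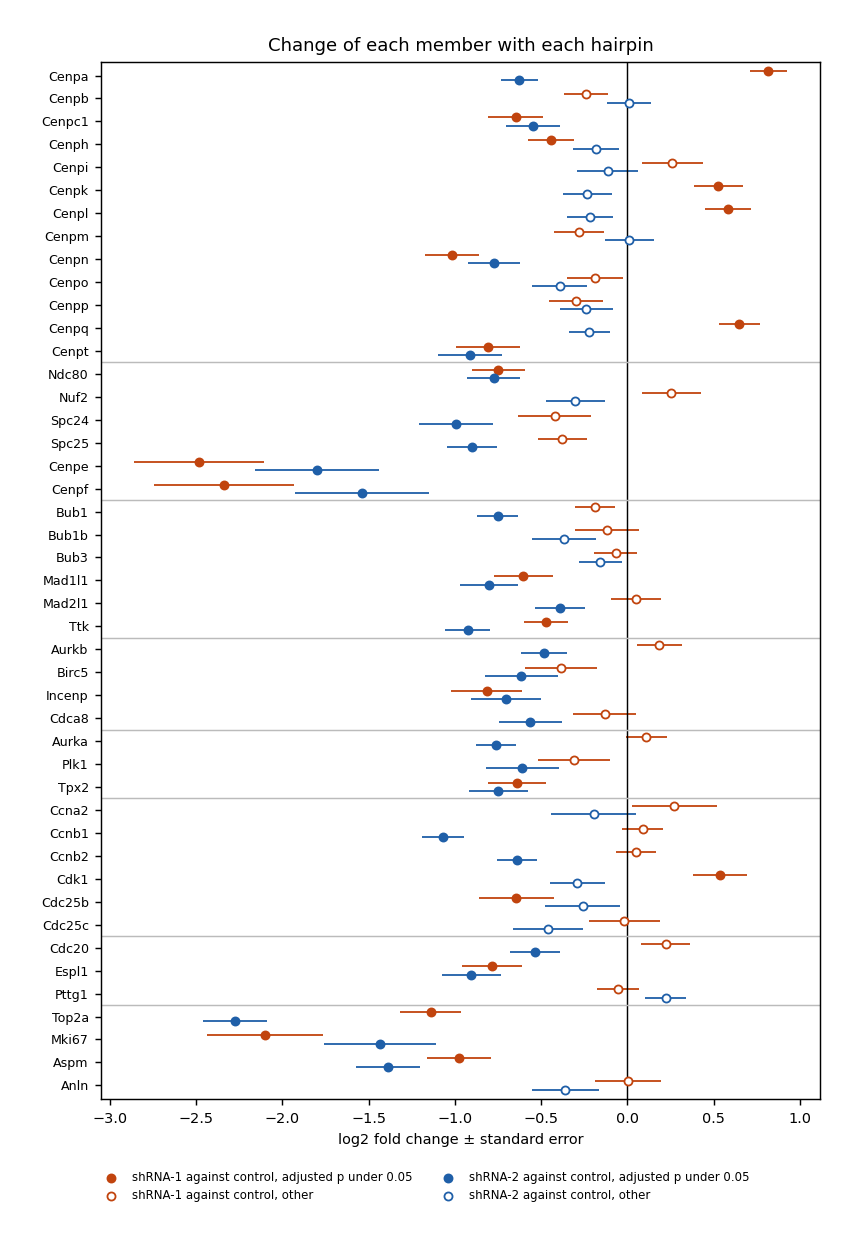
Log2 fold change with its standard error for every member, shRNA-1 and shRNA-2 each against control (3 libraries a group), ordered by role with grey lines between roles; filled points passed an adjusted p of 0.05 and open points did not. Points right of 0 that are filled are Cenpa, Cenpk, Cenpl, Cenpq and Cdk1 with shRNA-1.

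In the outer kinetochore 3 of 6 members were called lower with shRNA-1 (17.3% of all genes) and 5 of 6 with shRNA-2 (24.2%). The widest changes were in Cenpe and Cenpf. Cenpe (chr3:135212537-135273611, plus strand), the kinesin that carries chromosomes along microtubules to the spindle equator and whose promoter is printed above, had 21.9, 20.7 and 21.4 CPM with shRNA-1, 54.6, 13.1 and 34.7 CPM with shRNA-2 and 94.4, 119 and 145 CPM in the controls. All 6 knockdown libraries lay below the controls, and the shRNA-2 libraries spread over a range that included the shRNA-1 values. With shRNA-1 it was lower by 5.60-fold, a log2 fold change of -2.49 ± 0.38 (adjusted p = 0.000774), and 3.48-fold lower with shRNA-2, -1.80 ± 0.36 (adjusted p = 0.00156). Cenpf (chr1:189640606-189688086, minus strand), a long coiled-coil protein of the outermost layer, had 17.2, 17.5 and 12.6 CPM with shRNA-1, 48, 10.4 and 23.6 CPM with shRNA-2 and 65, 84.1 and 90.7 CPM in the controls. It too was below the controls in all 6 libraries, with log2 fold changes of -2.34 ± 0.41 (adjusted p = 0.00142) and -1.54 ± 0.39 (adjusted p = 0.00616).

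The spread with shRNA-2 followed a pattern seen in several members. Replicate 1 was the highest and replicate 2 the lowest shRNA-2 library for Cenpe, Cenpf and Mki67, and these libraries had the lowest and the highest ribosomal RNA share of the group, 6.10% and 15.8%. The coefficient of variation of Cenpf reached 69.9% with shRNA-2, where the median over the members was 10.9% with shRNA-1, 16.8% with shRNA-2 and 8.85% in the controls. When that share entered the fit as a covariate, Cenpe had a log2 fold change of -1.35 with shRNA-1 (adjusted p = 0.0327) and -1.42 with shRNA-2 (adjusted p = 0.000771). Cenpf then had -1.08 with shRNA-1 (adjusted p = 0.0526), which ended that call, and -1.15 with shRNA-2 (adjusted p = 0.00182).

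Of the NDC80 complex, which grips the microtubule end, Ndc80 itself had 22, 18.3 and 20.6 CPM with shRNA-1, 21.8, 15.3 and 22.3 CPM with shRNA-2 and 32.9, 32.8 and 36.4 CPM in the controls. Both knockdown groups were below the controls, and the log2 fold changes were -0.75 ± 0.15 (adjusted p = 0.00363) with shRNA-1 and -0.78 ± 0.15 (adjusted p = 0.00141) with shRNA-2. Its partner Nuf2 passed in neither comparison, at 0.26 ± 0.17 and -0.30 ± 0.17, although the hairpins differed from each other (0.56 ± 0.17, adjusted p = 0.0212). Without shRNA-2 replicate 1, Nuf2 was called lower with shRNA-2 (adjusted p = 0.0141). Spc24 and Spc25, the pair at the other end of the complex, were 1.99-fold and 1.87-fold lower with shRNA-2 (adjusted p = 0.00241 and 0.000364). With shRNA-1 they had log2 fold changes of -0.42 ± 0.21 (adjusted p = 0.144) and -0.38 ± 0.14 (adjusted p = 0.0615), and both were called lower there without shRNA-2 replicate 1 (adjusted p = 0.0384 and 0.0375). Spc25 was also called with shRNA-1 without shRNA-2 replicate 2 or control replicate 1 (adjusted p down to 0.0272).

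Of the 6 spindle checkpoint genes, 2 were called lower with shRNA-1 (17.3% of all genes) and 4 with shRNA-2 (24.2%). Ttk, the MPS1 kinase that starts checkpoint signalling, had 28.4, 30.3 and 35.1 CPM with shRNA-1, 23.7, 20.2 and 24.6 CPM with shRNA-2 and 42.4, 40.9 and 46.9 CPM in the controls. The groups did not overlap. Its log2 fold change was -0.47 ± 0.13 (adjusted p = 0.0156) with shRNA-1, lost without shRNA-1 replicate 1 or 2 or control replicate 3 (adjusted p up to 0.069), and -0.93 ± 0.13 (adjusted p = 0.000145) with shRNA-2. Mad1l1, which holds MAD2 at unattached kinetochores, had 26, 26.2 and 20.2 CPM with shRNA-1, 26.8, 18.2 and 18 CPM with shRNA-2 and 37.9, 37.6 and 34.5 CPM in the controls. Both knockdown groups were below the controls, at -0.60 ± 0.17 (adjusted p = 0.017) with shRNA-1 and -0.80 ± 0.17 (adjusted p = 0.00207) with shRNA-2, the first lost without shRNA-1 replicate 3 or control replicate 1 or 2 (adjusted p up to 0.0737).

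Mad2l1, the protein that MAD1 converts into the inhibitor of CDC20, had 62.4, 51.5 and 58.6 CPM with shRNA-1, 38.5, 51.8 and 36.7 CPM with shRNA-2 and 53.4, 57.1 and 55.8 CPM in the controls. The shRNA-1 and control libraries overlapped, and the shRNA-2 libraries lay just below the controls. The shRNA-2 change of -0.39 ± 0.14 (adjusted p = 0.0403) did not pass on leaving out any 1 control, shRNA-2 replicate 1 or 3 or shRNA-1 replicate 3 (adjusted p up to 0.152). Bub1b, the BUBR1 subunit of the mitotic checkpoint complex, had 72.5, 71 and 62.7 CPM with shRNA-1, 77.2, 45.9 and 49.9 CPM with shRNA-2 and 85.7, 64 and 73.7 CPM in the controls. All 3 groups overlapped and neither change passed, at -0.12 ± 0.19 (adjusted p = 0.662) and -0.37 ± 0.19 (adjusted p = 0.122), though without shRNA-2 replicate 1 the shRNA-2 change was called (adjusted p = 0.0033). Bub1, a kinase that marks centromeric chromatin, averaged 37.2 ± 0.893 CPM with shRNA-1, 25.2 ± 2.23 CPM with shRNA-2 and 42.4 ± 2.94 CPM in the controls and was called lower with shRNA-2 (-0.75 ± 0.12, adjusted p = 0.000282). Bub3, the adaptor that brings both to the kinetochore, averaged 375 ± 19.98 CPM with shRNA-1, 352 ± 10.6 CPM with shRNA-2 and 393 ± 51 CPM in the controls and passed with neither hairpin.

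All 4 genes of the chromosomal passenger complex were called lower with shRNA-2 (24.2% of all genes), and 1 of them with shRNA-1 (17.3%). Incenp, its scaffold, had 136, 143 and 119 CPM with shRNA-1, 194, 94.8 and 141 CPM with shRNA-2 and 246, 221 and 233 CPM in the controls. Every knockdown library was below every control, and the log2 fold change was -0.82 ± 0.21 (adjusted p = 0.0103) with shRNA-1 and -0.70 ± 0.21 (adjusted p = 0.0138) with shRNA-2. The shRNA-2 call was lost without control replicate 1 (adjusted p = 0.0524). Aurkb, the kinase of the complex, had 51.6, 51.1 and 45.8 CPM with shRNA-1, 32.5, 35.1 and 25.9 CPM with shRNA-2 and 41.7, 46.1 and 42.9 CPM in the controls. The shRNA-2 libraries were below both other groups, with a log2 fold change of -0.48 ± 0.13 (adjusted p = 0.0099) with shRNA-2 and 0.18 ± 0.13 (adjusted p = 0.3) with shRNA-1. Birc5, the survivin subunit, had 488, 393 and 312 CPM with shRNA-1, 449, 289 and 278 CPM with shRNA-2 and 598, 454 and 506 CPM in the controls. Its shRNA-1 libraries overlapped the controls and its shRNA-2 libraries lay just below them, at -0.39 ± 0.21 (adjusted p = 0.178) and -0.62 ± 0.21 (adjusted p = 0.0302). Cdca8, the borealin subunit, averaged 301 ± 48 CPM with shRNA-1, 223 ± 57 CPM with shRNA-2 and 330.0 ± 27.6 CPM in the controls and changed by -0.56 ± 0.18 (adjusted p = 0.0227) with shRNA-2. The shRNA-2 calls of Birc5 and Cdca8 were each lost without shRNA-2 replicate 2 or 3 or control replicate 1 or 3 (adjusted p up to 0.123 and 0.0871).

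The 2 spindle kinases and Tpx2 were all called lower with shRNA-2 (24.2% of all genes), and Tpx2 also with shRNA-1 (17.3%). Aurka, the centrosomal Aurora kinase, had 155, 142 and 144 CPM with shRNA-1, 85.2, 85.2 and 70.03 CPM with shRNA-2 and 139.6, 142 and 127 CPM in the controls. The shRNA-1 libraries lay just above the controls and the shRNA-2 libraries well below, 1.70-fold lower than control (-0.76 ± 0.12, adjusted p = 0.000276), while the shRNA-1 change was 0.11 ± 0.12 (adjusted p = 0.496). Plk1, whose promoter is printed above, had 264, 227 and 203 CPM with shRNA-1, 241, 154 and 168 CPM with shRNA-2 and 377, 243 and 239.6 CPM in the controls. Control replicate 1 stood above all other libraries, and all 3 groups overlapped. The shRNA-2 change of -0.61 ± 0.21 (adjusted p = 0.0308) was lost without that library or without shRNA-2 replicate 2 or 3 (adjusted p up to 0.181), and the shRNA-1 change was -0.31 ± 0.21 (adjusted p = 0.276). Tpx2, which activates Aurora A on spindle microtubules, had 101, 96.5 and 76.7 CPM with shRNA-1, 102, 63.2 and 88.5 CPM with shRNA-2 and 140.4, 152 and 135 CPM in the controls. All knockdown libraries were below the controls, at -0.64 ± 0.17 (adjusted p = 0.0132) with shRNA-1 and -0.75 ± 0.17 (adjusted p = 0.00338) with shRNA-2, the first lost without shRNA-1 replicate 3 or control replicate 2 (adjusted p up to 0.0587).

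Of the 6 genes for Cdk1, its cyclins and Cdc25, 1 was called lower and 1 higher with shRNA-1, 2 were called lower with shRNA-2, and 3 differed between the hairpins. The shares of all genes were 17.3% and 17.4%, 24.2%, and 41.0%. Ccnb1 (chr13:100778650-100786570, minus strand), cyclin B1, had 177, 209 and 167 CPM with shRNA-1, 82.2, 80.05 and 86 CPM with shRNA-2 and 185, 164 and 172 CPM in the controls. The shRNA-1 and control libraries overlapped, and the 3 shRNA-2 libraries lay close together, well below both. With shRNA-2 it was 2.10-fold lower, -1.07 ± 0.12 (adjusted p = 2.98e-05) on the log2 scale, against 0.09 ± 0.12 (adjusted p = 0.595) with shRNA-1, and the hairpins differed by 1.16 ± 0.12 (adjusted p = 2.5e-05). Ccnb2 averaged 119 ± 11.3 CPM with shRNA-1, 74.1 ± 6.39 CPM with shRNA-2 and 115 ± 3.23 CPM in the controls (SD, n = 3). It was called lower with shRNA-2 (-0.64 ± 0.12, adjusted p = 0.000837) and not called with shRNA-1 (0.05 ± 0.12, adjusted p = 0.771).

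Cdk1 (chr10:69335146-69352938, minus strand), the kinase that both cyclins activate, had 486, 525 and 416 CPM with shRNA-1, 316, 239.8 and 248 CPM with shRNA-2 and 387, 296 and 301 CPM in the controls. The shRNA-1 libraries were all above the controls, and the shRNA-2 libraries overlapped them. The log2 fold change was 0.54 ± 0.16 (adjusted p = 0.0211) with shRNA-1, a call lost without shRNA-1 replicate 1 or 2 or control replicate 2 or 3 (adjusted p up to 0.0938), and -0.29 ± 0.16 (adjusted p = 0.148) with shRNA-2. Without shRNA-2 replicate 1 the shRNA-2 change of Cdk1 was called (adjusted p = 0.041). Of the Cdc25 phosphatases, which remove the inhibitory phosphates from CDK1, Cdc25b averaged 25.1 ± 6.43 CPM with shRNA-1, 32.6 ± 9.45 CPM with shRNA-2 and 39.1 ± 5.42 CPM in the controls and was called lower with shRNA-1 (-0.64 ± 0.22, adjusted p = 0.0392), though not without shRNA-1 replicate 2 or 3 or any 1 control (adjusted p up to 0.139). Cdc25c averaged 10.4 ± 2.46 CPM with shRNA-1, 7.60 ± 1.45 CPM with shRNA-2 and 10.4 ± 1.21 CPM in the controls and Ccna2, the cyclin of S phase and early mitosis, 199.5 ± 51.2 CPM with shRNA-1, 144 ± 56.7 CPM with shRNA-2 and 165 ± 20.4 CPM in the controls. Neither passed with either hairpin. Without shRNA-2 replicate 1 Ccna2 and Cdc25b were called lower with shRNA-2 (adjusted p = 0.0278 and 0.0392), and without shRNA-2 replicate 2 Cdc25c was (adjusted p = 0.0388).

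At anaphase onset the 3 genes took 3 different courses. Cdc20, the checkpoint's target and activator of the anaphase-promoting complex, had 70.8, 83.6 and 84.8 CPM with shRNA-1, 40.4, 55.6 and 45.6 CPM with shRNA-2 and 60.4, 70.3 and 74.6 CPM in the controls. The shRNA-2 libraries were all below the controls, at -0.54 ± 0.14 (adjusted p = 0.0091), and the shRNA-1 libraries overlapped them, at 0.22 ± 0.14 (adjusted p = 0.255). Espl1, separase, which cuts cohesin, had 17.7, 12.5 and 11.4 CPM with shRNA-1, 13.7, 11 and 13.4 CPM with shRNA-2 and 26.1, 22.1 and 23.2 CPM in the controls. It was below the controls in all 6 libraries, with log2 fold changes of -0.78 ± 0.17 (adjusted p = 0.00513) with shRNA-1 and -0.91 ± 0.17 (adjusted p = 0.00105) with shRNA-2. Pttg1, securin, the inhibitor that holds separase inactive, had 95, 115 and 110.4 CPM with shRNA-1, 122, 141 and 126 CPM with shRNA-2 and 117, 101 and 116 CPM in the controls. The shRNA-2 libraries were all above the controls, but the change of 0.22 ± 0.12 (adjusted p = 0.15) did not pass, nor did that of -0.06 ± 0.12 (adjusted p = 0.751) with shRNA-1.

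**Figure D3:**
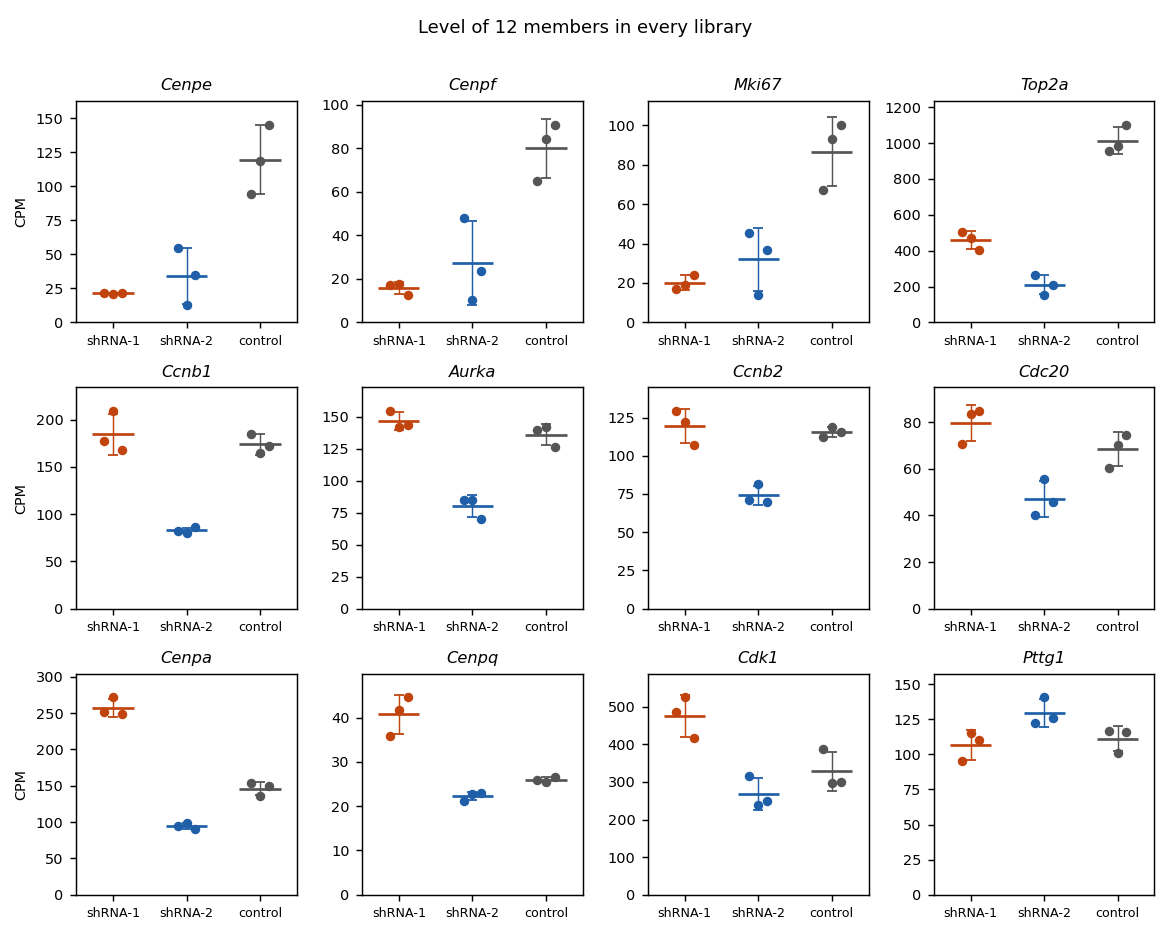
CPM of 12 members in each library of the shRNA-1, shRNA-2 and control groups, with the mean (line) and SD (bar, n = 3); each panel has its own linear axis from 0. The top row shows genes below control with both hairpins, the middle row genes not called with shRNA-1 and lower with shRNA-2, and the bottom row genes with other courses, among them Cenpa at 252, 272 and 248 CPM with shRNA-1.

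Of the last group, Top2a, Mki67 and Aspm were called lower with both hairpins (9.57% of all genes were). Top2a (chr11:98992943-99024189, minus strand), the topoisomerase that untangles sister chromatids, had 501, 471 and 406 CPM with shRNA-1, 262, 155 and 209.8 CPM with shRNA-2 and 957, 984 and 1100.3 CPM in the controls. The 3 groups were fully separated, with shRNA-2 lowest. Relative to control it was 2.21-fold lower for shRNA-1 (-1.14 ± 0.18, adjusted p = 0.000909) and 4.85-fold lower for shRNA-2 (-2.28 ± 0.19, adjusted p = 3.68e-06), and the hairpins differed from each other by 1.14 ± 0.18 (adjusted p = 0.000437). Mki67 (chr7:135689784-135716361, minus strand), the proliferation antigen that coats mitotic chromosomes, had 17.1, 19 and 24.3 CPM with shRNA-1, 45.3, 14 and 36.5 CPM with shRNA-2 and 67, 92.7 and 100.1 CPM in the controls. All 6 knockdown libraries were below the controls, with log2 fold changes of -2.10 ± 0.34 (adjusted p = 0.000985) and -1.43 ± 0.32 (adjusted p = 0.0033).

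Aspm, a spindle-pole protein, had 17.8, 16.2 and 14.9 CPM with shRNA-1, 15.3, 8.51 and 12.9 CPM with shRNA-2 and 30.6, 35.5 and 30.4 CPM in the controls. No knockdown library reached the controls, and the log2 fold change was -0.98 ± 0.19 (adjusted p = 0.00226) with shRNA-1 and -1.39 ± 0.19 (adjusted p = 0.000104) with shRNA-2. Anln, anillin of the cytokinetic ring, averaged 34.6 ± 4.68 CPM with shRNA-1, 26.8 ± 8.45 CPM with shRNA-2 and 34.4 ± 2.26 CPM in the controls. It passed with neither hairpin, and was called lower with shRNA-2 without shRNA-2 replicate 1 (adjusted p = 0.00301).

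Set against each other, the hairpins differed for 17 members, all higher with shRNA-1 than with shRNA-2, where 19.7% of all genes were called higher and 21.3% lower. None was called lower by edgeR, DESeq2 or limma-voom, and 1, Pttg1, was lower at an unadjusted p under 0.05. The median log2 difference over the 45 was 0.36, and 0.00 over all genes. It was 0.22 without shRNA-2 replicate 2 and 0.23 without shRNA-1 replicate 1. Among the 12 members called with shRNA-2 alone, 9 differed between the hairpins (Spc24, Spc25, Bub1, Mad2l1, Aurkb, Aurka, Ccnb1, Ccnb2 and Cdc20), and Birc5, Cdca8 and Plk1 did not pass. These 12 were picked by their calls in the same fit, which favours a difference between the hairpins, so the 9 are no separate evidence of one. The matching share of all genes called with shRNA-2 alone was not counted. Without shRNA-2 replicate 2, Cenpe, Cenpf and Mki67 were called lower with shRNA-1 than with shRNA-2 (adjusted p = 0.00243, 0.00566 and 0.00232).

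The members that fell most had long transcripts. Over the 45 members, Pearson's r between log2 transcript length and log2 fold change was -0.539 with shRNA-1 and -0.494 with shRNA-2 (Spearman's rho -0.323 and -0.301). Over 11990 tested genes with an annotated length, r was -0.318 and -0.0335 (rho -0.31 and -0.129). These are descriptions across genes that share the same 9 libraries. Of the 7 members over 5000 nt, 6 were called lower with shRNA-1 and 7 with shRNA-2, where 34.4% and 34.1% of all genes of that length were. Of the 38 others, 10 and 20 were, against 14.0% and 22.3% of all shorter genes. The bound of 5000 nt was chosen after the values were seen. After the trend with length was taken out of the counts, Cenpk with shRNA-1 (0.0829) and Mad2l1 with shRNA-2 (0.575) no longer had an adjusted p under 0.05. The same fit added lower calls of Cenpm, Cenpp and Spc25 with shRNA-1 (adjusted p = 0.0199, 0.0219 and 0.00941) and of Cenpp and Cdc25c with shRNA-2 (adjusted p = 0.0397 and 0.0489). The part of length in the other changes was not tested beyond that fit.

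**Figure D4:**
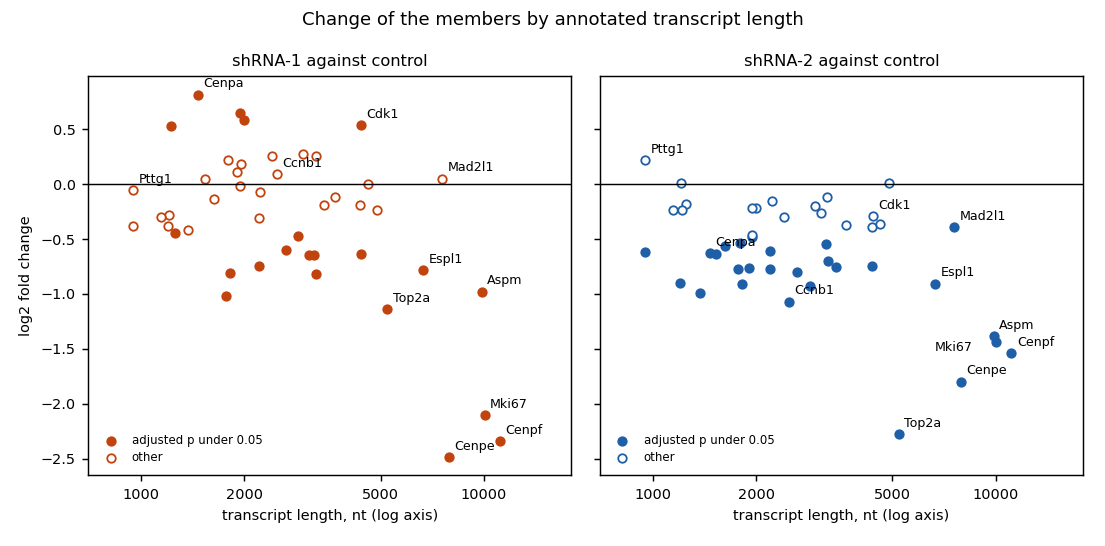
Log2 fold change of the 45 members against the annotated length of their main transcript in nucleotides (log axis), for shRNA-1 against control on the left and shRNA-2 against control on the right; filled points passed an adjusted p of 0.05. Cenpe, Cenpf and Mki67 lie at the lower right with both hairpins, and Top2a is lowest with shRNA-2.

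Per kilobase of annotated transcript, Birc5 was the most abundant member, at 420.0 CPM per kb with shRNA-1, 358 with shRNA-2 and 549 in the controls. Cdca8, Top2a and Bub3 followed in the controls at 203, 194 and 177 CPM per kb. With shRNA-2 Top2a stood at 40.1 CPM per kb, below Bub3 at 159. Cenpf was the least abundant with shRNA-1, at 1.42 CPM per kb beside 1.65 for Aspm. Aspm was the least abundant with shRNA-2, at 1.24 CPM per kb, and in the controls, at 3.26.

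Genes that work beside the members were tested in the same fit. Among 132 tested genes of the 7 pathway lists, 27 were called lower and 18 higher with shRNA-1, 70 lower and 9 higher with shRNA-2, and 24 lower and 3 higher with both. The shares of all genes given above were 17.3% lower and 17.4% higher with shRNA-1, 24.2% and 24.4% with shRNA-2, and 9.57% and 9.24% with both. With the ribosomal RNA covariate the lower counts of these lists were 4 with shRNA-1, 64 with shRNA-2 and 4 with both, and with total-count scaling 44, 82 and 36. Their higher counts with shRNA-1 were 11 and 10 in these fits. Without control replicate 3 the lower counts were 16 with shRNA-1 and 14 with both, without shRNA-1 replicate 2 the higher count with shRNA-1 was 11, and without control replicate 1 the higher count with both was 5. The median log2 fold change was 0.02 with shRNA-1 and -0.44 with shRNA-2.

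Cohesin and condensin genes, which hold and compact sister chromatids, were called lower for 9 of 20 with shRNA-1 and 17 of 20 with shRNA-2, and higher for 1 with shRNA-1. Called lower with both were 8, and 4 without control replicate 3. With the covariate 2 were called lower with shRNA-1, 2 with both and 17 with shRNA-2. Of all genes, 17.3% were called lower and 17.4% higher with shRNA-1, 24.2% lower with shRNA-2 and 9.57% lower with both. The cohesin subunit Smc1a fell with both (-1.80 ± 0.25 and -1.13 ± 0.25, adjusted p = 0.000537 and 0.00278). The cohesin loader Nipbl had -1.95 ± 0.31 (adjusted p = 0.000914) with shRNA-1 and -0.97 ± 0.30 (adjusted p = 0.0173) with shRNA-2, the second lost without control replicate 3 (adjusted p = 0.073) and the first with the ribosomal RNA covariate (0.0501). Of 10 genes of cytokinesis and the spindle midzone, 5 were lower and 2 higher with shRNA-1 and 9 lower with shRNA-2. The higher count was 0 or 1 without any 1 shRNA-1 library or any 1 control. With the covariate the lower count was 0 for shRNA-1 and 9 for shRNA-2. The midzone bundling protein Prc1 averaged 107 ± 14.1 CPM with shRNA-1, 43.1 ± 8.39 CPM with shRNA-2 and 160.4 ± 10.7 CPM in the controls, a log2 fold change of -0.59 ± 0.15 (adjusted p = 0.012) with shRNA-1 and -1.89 ± 0.16 (adjusted p = 4.01e-06) with shRNA-2. The kinesin gene Kif20b had -1.71 ± 0.31 (adjusted p = 0.00173) and -1.60 ± 0.30 (adjusted p = 0.0011). The shRNA-1 call of Prc1 was lost without shRNA-1 replicate 3 (adjusted p = 0.0555), and those of Prc1 and Kif20b with the covariate (0.489 and 0.123).

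Other kinetochore and centromere-loading genes were called lower for 6 of 26 with shRNA-1 and 15 of 26 with shRNA-2, and higher for 2 and 1. In the whole fit 17.3% of genes were called lower and 17.4% higher with shRNA-1, and 24.2% and 24.4% with shRNA-2. Without control replicate 3 the shRNA-1 count was 1 and without shRNA-1 replicate 3 it was 2, and without shRNA-2 replicate 3 the shRNA-2 count was 8 and without control replicate 1 it was 9. With the covariate the lower count was 0 with shRNA-1 and 11 with shRNA-2, where 4.19% and 22.7% of all genes were called lower. Casc5, the KNL1 platform on which BUB proteins assemble, averaged 14.3 ± 0.422 CPM with shRNA-1, 12.2 ± 4.60 CPM with shRNA-2 and 37.1 ± 4.73 CPM in the controls. It changed by -1.37 ± 0.23 (adjusted p = 0.00118) with shRNA-1, lost with the covariate (0.0792), and by -1.59 ± 0.23 (adjusted p = 0.000166) with shRNA-2.

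Of 17 other mitotic kinases and regulators of CDK1, 0 were called lower and 4 higher with shRNA-1, and 10 lower and 1 higher with shRNA-2. Only 2 were called in opposite directions. Of all genes, 17.3% were called lower and 17.4% higher with shRNA-1, and 24.2% and 24.4% with shRNA-2. With the ribosomal RNA covariate 2 of the 17 were higher with shRNA-1 and 8 lower with shRNA-2. With total-count scaling these counts were 1 and 11. The higher count with shRNA-1 was 1 or 2 without any 1 shRNA-1 library or without control replicate 2 or 3, and the lower count with shRNA-2 was 6 without shRNA-2 replicate 3 and 5 without control replicate 1. Cks1b, a small subunit of cyclin-dependent kinases, averaged 649 ± 71.2 CPM with shRNA-1, 77.3 ± 12.6 CPM with shRNA-2 and 551 ± 151 CPM in the controls, a change of 0.24 ± 0.19 (adjusted p = 0.358) with shRNA-1 and -2.83 ± 0.20 (adjusted p = 2.1e-06) with shRNA-2. Cdc25a, the third CDC25 phosphatase, had -0.04 ± 0.15 (adjusted p = 0.858) and -1.34 ± 0.15 (adjusted p = 3.73e-05).

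Of 17 anaphase-promoting complex genes, 1 was called lower and 2 higher with shRNA-1, and 4 lower and 2 higher with shRNA-2. The 4 of 17 lie near the 24.2% of all genes called lower with shRNA-2. With total-count scaling the lower counts were 4 for shRNA-1 and 8 for shRNA-2. Its subunit gene Cdc27 rose with both hairpins (0.83 ± 0.13 and 0.69 ± 0.13, adjusted p = 0.000909 and 0.001). Anapc7 had -0.37 ± 0.12 (adjusted p = 0.0296) and -0.45 ± 0.12 (adjusted p = 0.00823), and its shRNA-1 call was lost without any 1 shRNA-1 library or without control replicate 2 or 3 (adjusted p up to 0.11) and with the covariate (0.118). Of 20 genes of G2/M transcription control, 2 were lower and 2 higher with shRNA-1 and 7 lower and 1 higher with shRNA-2. With total-count scaling the lower counts were 5 for shRNA-1 and 7 for shRNA-2. The 7 became 4 without control replicate 1 or 3, and without shRNA-2 replicate 3 the 1 became 3. Of all genes, 17.3% were called lower and 17.4% higher with shRNA-1, and 24.2% and 24.4% with shRNA-2. Foxm1, a transcription factor of G2/M genes, had -0.67 ± 0.15 (adjusted p = 0.00542) and -0.90 ± 0.15 (adjusted p = 0.000447), the first lost with the covariate (0.283). Rbl2, the p130 pocket protein of the DREAM complex, had -0.97 ± 0.15 (adjusted p = 0.000821) and -0.69 ± 0.14 (adjusted p = 0.00213).

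GENCODE has other genes on the exons of 14 members. Ccna2 shares exonic sequence with Exosc9, Cdc20 with Elovl1, Cdc25b and Cenpb with Spef1, Cdc25c with Gm3550, Cdca8 with 9930104L06Rik, Cenpk with Ppwd1, Cenpo with Adcy3 and Ptrhd1, Cenpp with Ippk and Aspn, Cenpq with Mut, Cenpt with Tsnaxip1, Mad1l1 with Gm16121, Plk1 with Gm44985 and Top2a with Gm23451. The pairs lie on opposite strands, other than Cenpb with Spef1 and Top2a with Gm23451. No source used here gives the strand setting of the counting, so reads of these pairs cannot be told apart.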

How the data were processed

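The counts are the authors' raw read counts per gene, one deposited file a library, made with STAR 2.3.0e and HTSeq 0.6.0 on mm10 per the submitters' processing notes. No source used here gives the annotation release, strand setting or treatment of multiply mapped reads. Per the labels' protocols, first-strand cDNA was primed with oligo-dT and second-strand cDNA with random decamers. The 45 members were found by symbol and rows with the same symbol were summed. All 9 libraries entered a single edgeR 4.0.16 quasi-likelihood fit (R 4.3.3) with group as the only term, filterByExpr by group (12663 genes kept, 0.0908% of counts removed), TMM scaling and Benjamini-Hochberg adjustment over all tested genes, with calls at an adjusted p under 0.05. Fold changes are log2 and errors on them are standard errors. P-values measure the spread between separately transduced cultures. Levels are TMM-scaled CPM. DESeq2 1.42.0 and limma 3.58.1 (voom) were alternatives. Only the edgeR fit with TMM scaling was tested on simulated data, for each hairpin against control. That simulation gave all genes the same spread and changed few of them. The other fits were not simulated. No replicate pair agreed within sampling noise (chi-square per degree of freedom 18.98 to 137.5). Positions and transcript lengths came from GENCODE M21 (GRCm38), the length being that of the longest principal transcript, and promoters from RefSeq. Members and lists were chosen with earlier results of these data known. Values of each library are given for 14 members listed by name, for members called in the same direction with both hairpins, and for the largest changes of each comparison. Other members are given by mean ± SD or range. In each pathway list, up to 2 genes lower and 2 higher with both hairpins were named, or, where there were none, the 2 of highest mean CPM (Cks1b and Cdc25a). A gene that this rule names is not reported here.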

Additional observations from a re-analysis of the deposited data

Results flagged for a closer look

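The contrast with control differed between the hairpins for 17 members, all with a higher value under shRNA-1, by the edgeR quasi-likelihood test of shRNA-1 against shRNA-2 at an adjusted p under 0.05. The differences are on the log2 scale, shRNA-1 minus shRNA-2.

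In the kinetochore the difference was 1.44 for Cenpa, 0.868 for Cenpq, 0.803 for Cenpl, 0.76 for Cenpk, 0.572 for Spc24, 0.557 for Nuf2 and 0.525 for Spc25. Cenpa stood apart in that the hairpins moved it in opposite called directions. In the spindle checkpoint it was 0.563 for Bub1, 0.454 for Ttk and 0.442 for Mad2l1.

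Among the kinases and their partners it was 1.16 for Ccnb1, 0.873 for Aurka, 0.828 for Cdk1, 0.689 for Ccnb2 and 0.668 for Aurkb. It was 0.758 for Cdc20. It was 1.14 for Top2a, which was lower than control with both hairpins.

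Of these calls, 4 were lost on leaving out a library. Spc24 lost its call on leaving out any 1 library other than shRNA-1 replicate 3 or shRNA-2 replicate 1 (adjusted p up to 0.17). Mad2l1 lost it without shRNA-1 replicate 1 or 3 or shRNA-2 replicate 1 or 3 (up to 0.12), Nuf2 without shRNA-1 replicate 1 or shRNA-2 replicate 2 or 3 (up to 0.0936), and Ttk without shRNA-1 replicate 3 (0.0756).

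Syncrip itself was at 17.8 ± 2.13 CPM with shRNA-1 and 56.7 ± 9.05 CPM with shRNA-2 (SD, n = 3). Its part in these differences was not tested.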

How the results depend on the processing

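Of 22 alternatives, the rules of an adjusted p under 0.01 and of 2-fold or more keep the same fold changes, so no sign could change. In the others no member's called value changed sign. With the ribosomal RNA share of each library as a covariate, the members called lower numbered 3 with shRNA-1 and 3 with both hairpins, those higher with shRNA-1 numbered 3, and 1 was lower with shRNA-1 than with shRNA-2. The share did not overlap between shRNA-1 and control libraries, so that fit separates hairpin and share poorly. At an adjusted p under 0.01, 10 were lower and 3 higher with shRNA-1 and 9 lower with both. At 2-fold or more, 5 were lower and 0 higher with shRNA-1, 6 lower with shRNA-2, 4 lower with both and 3 higher with shRNA-1 than with shRNA-2. Among the 12663 genes tested, 700 were lower by that rule with shRNA-1, 1005 with shRNA-2 and 236 with both. The shares of all genes at an adjusted p under 0.01, and of those higher at 2-fold or more, were not counted. Scaling by total counts left 2 members higher with shRNA-1 and gave medians of -0.49 with shRNA-1 and -0.77 with shRNA-2. Members lower with shRNA-1 than with shRNA-2 numbered 3 with no filter on low counts, and 1 each with a minimum of 5 CPM in 3 libraries, with the length trend taken out and with the replicate block.

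Leaving out each library in turn gave 12 to 18 members lower and 3 to 5 higher with shRNA-1, the 3 without control replicate 2. It gave 23 to 32 lower and 0 higher with shRNA-2, 12 to 17 lower and 0 higher with both, and 14 to 22 higher and 0 to 3 lower with shRNA-1 than with shRNA-2. In these fits 11.3 to 19.3% of all genes were called lower with shRNA-1 and 18.8 to 24.6% with shRNA-2. Between the hairpins 16.7 to 21.7% of all genes were called lower with shRNA-1. The medians were -0.26 to -0.20 with shRNA-1, -0.62 to -0.50 with shRNA-2 and 0.22 to 0.43 between the hairpins. The cause of these shifts was not tested.

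The groups share replicate numbers. Same-numbered deviations correlated by -0.129 to 0.335, most above 0, and different-numbered ones by -0.419 to 0.288, most below 0. Deviations from a group's mean sum to 0, so the signs of the same-numbered and different-numbered values are tied. As the same-numbered values were not all above 0.1, the numbers were not taken as pairs. Whether same-numbered libraries shared a batch was not tested. The replicate block added calls and ended none among the members: with it, 2411 genes were called lower and 2552 higher with shRNA-1, and 3317 lower and 3328 higher with shRNA-2. Without the block these were 2188 and 2201, and 3067 and 3095. Depth limits the least abundant members, such as Cenpt at 4.54 to 11.7 CPM.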

Other observations

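Genes of G1/S and DNA replication were called in both directions. Of 22 tested, 4 were called lower and 5 higher with shRNA-1, 8 lower and 4 higher with shRNA-2, and 3 lower and 2 higher with both (edgeR quasi-likelihood, adjusted p under 0.05). Of all genes, 17.3% were called lower and 17.4% higher with shRNA-1, 24.2% and 24.4% with shRNA-2, and 9.57% and 9.24% with both. The lower counts with shRNA-1 and with both were 10 and 8 under total-count scaling, and 1 each with the ribosomal RNA covariate. The lower count with shRNA-1 was 2 without any 1 shRNA-1 library or without control replicate 1 or 3, and the lower count with both was 5 without shRNA-2 replicate 1 or 2. Ccne1, cyclin E1, averaged 41.4 ± 2.13 CPM with shRNA-1, 47.3 ± 6.06 CPM with shRNA-2 and 23.6 ± 3.10 CPM in the controls (SD, n = 3) and rose by 0.81 ± 0.14 (adjusted p = 0.00136) with shRNA-1 and 1.00 ± 0.14 (adjusted p = 0.000127) with shRNA-2 on the log2 scale. Ccnd3, cyclin D3, had 0.65 ± 0.14 (adjusted p = 0.00466) and 0.52 ± 0.14 (adjusted p = 0.00967), neither of which held with scaling by total counts (0.064 and 0.124). Cdk6, the kinase that D-type cyclins activate, had -0.60 ± 0.11 (adjusted p = 0.00172) and -0.79 ± 0.11 (adjusted p = 0.000126), and its shRNA-1 change did not hold once the length trend was taken out (0.761). Mcm3, of the replicative helicase, had -0.52 ± 0.13 (adjusted p = 0.0106) and -0.78 ± 0.13 (adjusted p = 0.000506), and the first did not hold with the ribosomal RNA covariate (0.189).

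Over the 9 libraries, the genes outside the 45 whose level followed the members' mean most closely were Pgrmc2 and Ivns1abp (Pearson's r 0.994 each), Aars (0.994), Zdhhc20 (0.991) and Farsa (0.989). They were chosen for this likeness out of all tested genes, and the values are descriptions over libraries that fall into 3 groups.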
